A study of Mus musculus with 4 samples.

Results

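Sult1e1, the oestrogen sulfotransferase, was described in mouse liver together with 8 genes of the same reaction: the phenol-type sulfotransferases Sult1a1, Sult1b1, Sult1c2 and Sult1d1, the related Sult5a1, the PAPS synthases Papss1 and Papss2, and the steroid sulfatase Sts. The 9 genes are those of 30141 gene names on the array whose non-control probes carry one of these symbols, and all 9 were among the 16079 genes measured well enough to be tested. They were chosen by name with the AAV_Cre over AAV_Null ratios of these same arrays known, so their ratios are given as a description, with no test. Livers came from female C57B/6 mice of 8 to 10 weeks, all of them homozygous for a floxed Trib1 allele, the AAV_Null controls included. The mice were fed chow, fasted for 4 hours and taken 1 week after AAV_Cre, which the design text calls a liver-specific knockout, or after AAV_Null, which it calls wild type. The promoter that drives Cre and the floxed part of Trib1 are not given in the sources used here. Whole liver RNA was used, and whether an RNA came from 1 mouse or a pool is not stated. The 4 arrays each compared a liver RNA labelled AAV_Cre with an AAV_Null RNA in the opposite dye. Cy5 carried AAV_Cre on arrays 1 and 2, while Cy3 carried it on arrays 3 and 4. AAV_Cre and AAV_Null below stand for RNA so labelled.

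Cytosolic sulfotransferases move a sulfonate group from PAPS, the activated form of sulfate, onto small molecules with a hydroxyl or amino group, which makes them more water-soluble and often inactive. PAPS is made from sulfate and ATP by the PAPS synthases, each a single protein with an ATP sulfurylase and an APS kinase activity. Sult1e1 sulfates oestrogens, which then no longer bind the oestrogen receptor, and Sts takes sulfate off steroid sulfates again. In the liver these enzymes act on hormones, drugs and phenols, and hepatic Sult1e1 is known as a low-abundance transcript in healthy mice that is inducible.

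The probe sequences show where each transcript was read. The array reads Sult1e1 with 1 probe of 60 bases at chr5:88005187-88005246 on the minus strand (mm9, the build in the file headers), from base 1006 of the transcript. Sult1c2 has 1 probe at chr17:53969205-53969264, and Sult1d1 has a probe from transcript base 1001 at chr5:87985008-87985067 and another from base 2338 at chr5:87983671-87983730, all on the minus strand. The probes of these 3 genes are shown because the largest ratios among the 9 genes came from them. The Sult1d1 probe from base 1001 is given whole, and its capitals mark codons of the conserved sequence motif with which sulfotransferases hold PAPS. Of the others the first 30 bases are given.
Sult1e1 (base 1006): aatggagctctgagccacttccttgtgtct
Sult1c2 (base 1162): cctgaaagcaaactgtaaaggccaaagatt
Sult1d1 (base 1001): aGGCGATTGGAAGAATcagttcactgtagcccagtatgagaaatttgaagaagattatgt
Sult1d1 (base 2338): ccagtaatgactgtctaaaataaacatcct
Probes of the 9 genes matched the closest probe of another sulfotransferase gene at 22 to 27 of 60 bases, with at most 9 identical bases in a row. Of 39429 probes on the array, 0 probes of other genes shared a run of 20 bases with them. Probes were set against probes and not against transcripts.

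Sult1e1, Sult1d1 and Sult1b1 lie next to each other on chromosome 5, between Ugt2 genes and casein genes, in the RefSeq annotation of GRCm38.p6. Their promoters are shown as neighbours that behaved differently on the arrays, as the 250 bases before each start in RefSeq, all on the minus strand of GRCm38.p6. Capitals mark TGACCT, the reverse complement of AGGTCA, the core motif of nuclear receptors.
Sult1e1 (chr5:87591612-87591861): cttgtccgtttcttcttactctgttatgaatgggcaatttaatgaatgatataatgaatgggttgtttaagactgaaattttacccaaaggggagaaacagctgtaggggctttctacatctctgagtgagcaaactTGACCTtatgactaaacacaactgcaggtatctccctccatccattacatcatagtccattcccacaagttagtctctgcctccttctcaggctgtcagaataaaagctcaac
Sult1d1 (chr5:87569007-87569256): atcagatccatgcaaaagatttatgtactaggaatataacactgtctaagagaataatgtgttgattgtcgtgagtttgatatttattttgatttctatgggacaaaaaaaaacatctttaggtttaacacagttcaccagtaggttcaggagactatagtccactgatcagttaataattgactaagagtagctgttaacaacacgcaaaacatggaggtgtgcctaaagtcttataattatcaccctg
Sult1b1 (chr5:87538196-87538445): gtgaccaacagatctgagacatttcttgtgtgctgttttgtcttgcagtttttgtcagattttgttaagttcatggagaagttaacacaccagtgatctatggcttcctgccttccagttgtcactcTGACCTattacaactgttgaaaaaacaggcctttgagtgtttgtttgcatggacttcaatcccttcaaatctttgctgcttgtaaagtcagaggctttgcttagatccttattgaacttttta
The motif began at position -113 from the Sult1e1 start and at position -123 from this Sult1b1 start. RefSeq lists a second Sult1b1 start, whose 250 bases (chr5:87536223-87536472) held 0 matches and are not shown. AGGTCA was searched for on both strands in the 250 bases before each start, and RefSeq promoters were matched for 8 of the 9 genes. AGGTCA was found in promoters of Sult1e1, Sult1b1 and Papss2, or 3 of 11 promoters, beside 14.02% of all 32851 promoters. Of the other motifs searched on both strands, TTGCNNAA (C/EBP core) was held by 9.56% of all promoters, TGTTTAC (forkhead) by 3.17% and TATAAA by 12.4%. Of the longer ones, which overlap AGGTCA, the direct repeat of AGGTCA spaced by 4 bases was in 0.0152% of promoters and the oestrogen response element, an inverted repeat of GGTCA spaced by 3 bases, in 0.0639%. These 5 motifs had 0 matches in the 11 promoters of the 8 genes searched.

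The arrays differed mainly by dye orientation. Each array held 43020 non-control spots, of which 51.0% to 55.3% in Cy5 and 53.1% to 58.7% in Cy3 were well above background, and 0 were saturated. Across 15703 genes, arrays 1 and 2 had log2 ratios that correlated at 0.66, and for arrays 3 and 4 the correlation was 0.48. Arrays of opposite orientation, which differ in RNA pair as well as dye, correlated at 0.071 to 0.19. A dye effect was therefore fitted for each gene, and the standard errors below leave out the difference between orientations. For Trib1, the gene with the floxed allele, the probe with the brightest signal gave log2 ratios of 0.64, 1.02, 1.09 and 1.01 on arrays 1 to 4 (limma adjusted p = 0.0209). Another Trib1 probe gave 0.97, 1.52, 1.48 and 1.18, and the third gave -0.098, -0.073, -0.0017 and -0.014. No Trib1 probe was lower in AAV_Cre beyond its standard error, so Trib1 goes against the label unless the removed part spares these probes, and every direction below rests on the labels. Liver cell type markers were read in 9 lists, beside 2.77% of all genes past a limma adjusted p of 0.05. Of 14 hepatocyte markers tested, Trf alone passed (mean log2 ratio -0.52, limma adjusted p = 0.0445). Of 10 stellate cell and fibroblast markers tested, Col3a1 alone passed (0.47, limma adjusted p = 0.0439). No marker of the other lists passed. At an unadjusted p under 0.05, limma had 8 of 13 endothelial markers, with log2 ratios of -0.35 to 0.29 (median -0.15). At that level it had 6 of 14 hepatocyte, 5 of 10 stellate cell and fibroblast and 2 of 5 cholangiocyte markers. It had 2 of 12 macrophage, 1 of 5 B cell, 1 of 7 neutrophil, 1 of 3 erythroid and 0 of 5 T and natural killer cell markers. Of all genes, 22.6% were at that level. The Trf ratios were 0.27, 0.33, -1.18 and -1.51, with opposite signs in the dye orientations (limma adjusted p of the dye effect = 0.0272). Of 15 hepatocyte markers 14 were measured, with a mean log2 intensity of 16.4 to 17.0 in AAV_Cre and 16.7 to 17.0 in AAV_Null.

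Sult1e1 was several times higher in AAV_Cre on every array. Its normalised log2 intensity was 12.004, 13.108, 11.184 and 12.564 in AAV_Cre on arrays 1 to 4, against 9.386, 10.062, 8.636 and 9.634 in AAV_Null. The lowest AAV_Cre level lay 1.12 above the highest AAV_Null level, so the groups did not overlap. The log2 ratio was 2.62, 3.05, 2.55 and 2.93, which is 6.14-fold, 8.26-fold, 5.85-fold and 7.62-fold. The mean log2 ratio was 2.79 ± 0.11 (SE, n = 4 arrays), or 6.90-fold. It was 2.83 with AAV_Cre in Cy5 and 2.74 with AAV_Cre in Cy3, and the SE without a dye term was also 0.11. In whole liver, more transcript per cell and more cells that carry it cannot be told apart.

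Sult1e1 levels also differed between arrays within each group, and the arrays kept their order. The mean log2 intensity was 12.2 ± 0.82 in AAV_Cre and 9.43 ± 0.60 in AAV_Null (SD, n = 4 each). Array 2 was the highest and array 3 the lowest in both channels, with arrays 4 and 1 between them. Both channels of an array were read from 1 spot, so its brightness enters both levels. The part of spot brightness in this order was not tested. Within an array the ratio varied less, with an SD of 0.24 over arrays. Sult1e1 had the highest log2 ratio of the 16079 genes tested, and it was chosen with that known.

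**Figure D1:**
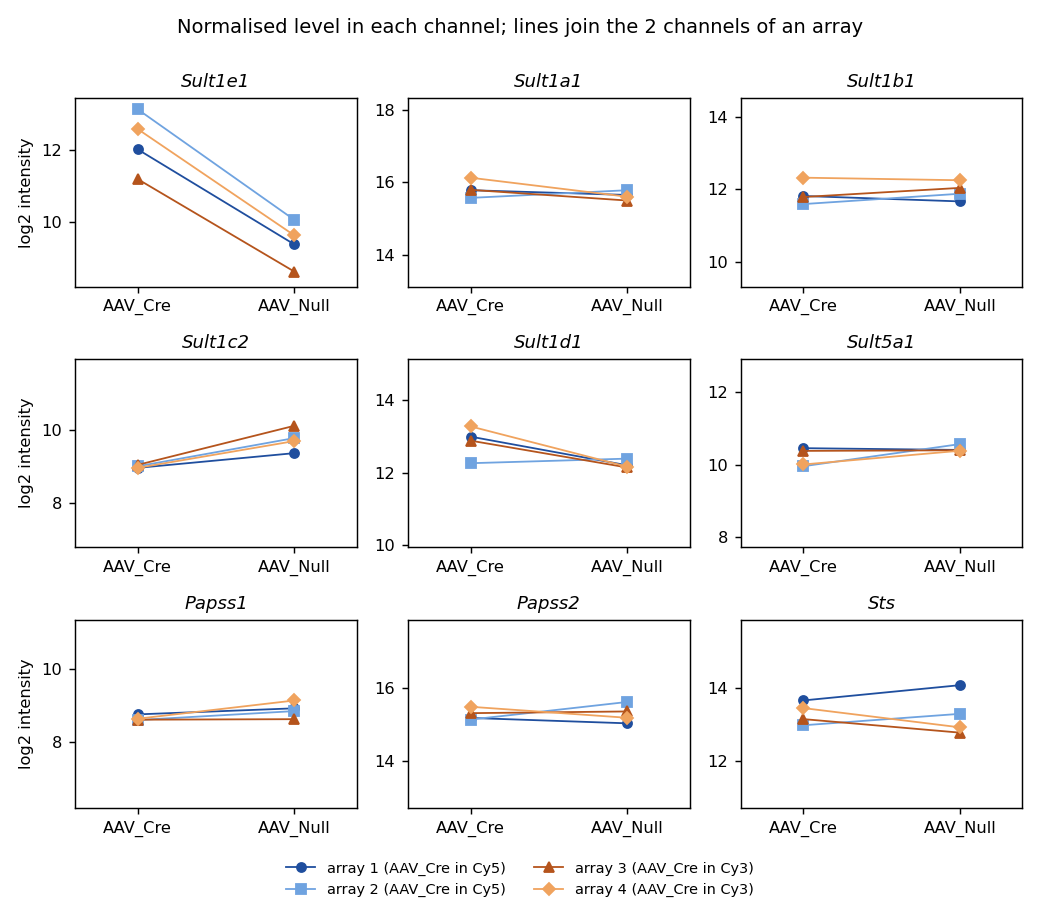
Normalised log2 intensity of the probe that stands for each of the 9 genes, with AAV_Cre left and AAV_Null right in each panel, for arrays 1 to 4, where a line joins both channels of an array and every vertical axis spans the same number of log2 units. The Sult1e1 points lie between 11.2 and 13.1 in AAV_Cre and between 8.64 and 10.1 in AAV_Null, while the Sult1c2 points lie between 8.97 and 9.05 in AAV_Cre and between 9.38 and 10.1 in AAV_Null.

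The pattern of the 4 ratios was set against that of 12134 genes measured on all 4 arrays, clone and predicted names left out. By root mean square difference of the log2 ratio per array, the closest genes were Sult3a2 (0.42), Phlda3 (0.56), Sult2a4 (0.64), Sult2a3 (0.66) and Atp8b5 (0.88). Sult3a2 had log2 ratios of 2.15, 2.98, 2.44 and 2.24. Of these genes, Sult3a2, Sult2a4 and Sult2a3 are sulfotransferases of steroids and related compounds. The measure follows the size of the ratio as well as its course over the arrays.

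Sult1c2, a sulfotransferase of phenols, was lower in AAV_Cre on every array. Its log2 intensity was 8.97, 9.01, 9.05 and 8.97 in AAV_Cre, against 9.38, 9.79, 10.13 and 9.71 in AAV_Null. The groups did not overlap, and the nearest levels were 0.32 apart. The AAV_Cre levels lay within a narrow band (SD 0.039) while the AAV_Null levels spread more (SD 0.31). The log2 ratio was -0.41, -0.78, -1.08 and -0.74, with a mean of -0.75 ± 0.096 (SE, n = 4), or 0.595 of the AAV_Null level. It ranked 52nd from the lowest of 16079 genes.

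Sult1d1, which sulfates catecholamines in mice, was higher in AAV_Cre on 3 of 4 arrays. Its probe from base 1001 gave 12.99, 12.26, 12.88 and 13.27 in AAV_Cre, against 12.20, 12.39, 12.14 and 12.17 in AAV_Null. On arrays 1, 3 and 4 AAV_Cre was above every AAV_Null level, and on array 2 it was not. The log2 ratios were 0.79, -0.13, 0.74 and 1.11, with a mean of 0.63 ± 0.17 (SE, n = 4), or 1.55-fold. The probe from base 2338, with 10.99, 10.44, 10.85 and 11.42 in AAV_Cre and 9.92, 10.24, 10.25 and 10.50 in AAV_Null, had ratios of 1.07, 0.20, 0.60 and 0.92 and a mean of 0.70 ± 0.16. Both probes were lowest on array 2. Without array 2 the Sult1d1 mean was 0.86, and without array 1 it was 0.40.

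Sult1a1, the main phenol sulfotransferase of liver, differed little. Its brighter probe, from base 1089 (chr7:133816605-133816664), gave 15.79, 15.57, 15.80 and 16.13 in AAV_Cre, against 15.66, 15.79, 15.50 and 15.61 in AAV_Null. The groups overlapped, with array 2 again on the other side of 0. The log2 ratios were 0.13, -0.21, 0.29 and 0.52 (mean 0.18 ± 0.083). The second probe, from base 1037 (chr7:133816657-133816716) and overlapping the first, gave 0.26, -0.23, 0.25 and 0.44 (mean 0.18 ± 0.10).

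Sult1b1, which sulfates thyroid hormones, had no common direction over the arrays. Its levels were 11.81, 11.59, 11.78 and 12.32 in AAV_Cre and 11.66, 11.87, 12.03 and 12.25 in AAV_Null. The ratios were 0.15, -0.28, -0.25 and 0.071, with a mean of -0.079 ± 0.10. Between Sult1b1 and Sult1e1 lies Sult1d1, so these neighbours had mean log2 ratios of -0.079, 0.63 and 2.79 in genome order.

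Sult5a1 has 2 probes, of which the one from base 400 was well above background in 0 of 4 channels of either group and was not tested. The probe from base 896 (chr8:125666951-125667010) gave 10.45, 9.95, 10.38 and 10.00 in AAV_Cre, against 10.40, 10.56, 10.39 and 10.38 in AAV_Null. AAV_Cre was lower on arrays 2 and 4 and close to AAV_Null on arrays 1 and 3. The log2 ratios were 0.049, -0.61, -0.017 and -0.38 (mean -0.24 ± 0.13).

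**Figure D2:**
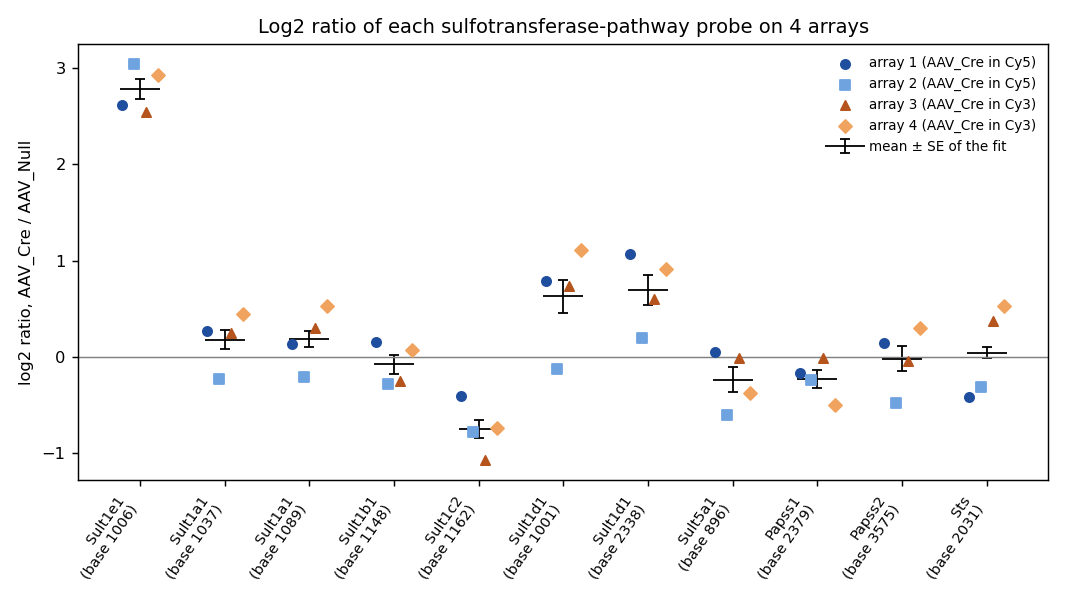
Log2 ratio of AAV_Cre over AAV_Null on arrays 1 to 4 (points) for the 11 tested probes of the 9 genes, named by gene and first transcript base, with the mean and SE of the fit as bars. Sult1e1 lies between 2.55 and 3.05, Sult1c2 between -1.08 and -0.41, and both Sult1d1 probes are lowest on array 2.

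The PAPS synthases had small ratios. Papss2, the synthase known to prevail in liver, gave 15.18, 15.14, 15.31 and 15.49 in AAV_Cre, against 15.03, 15.62, 15.36 and 15.19 in AAV_Null. The groups overlapped, and the log2 ratios were 0.15, -0.48, -0.047 and 0.30 (mean -0.020 ± 0.13). Papss1 gave 8.76, 8.60, 8.61 and 8.64 in AAV_Cre, against 8.93, 8.85, 8.63 and 9.14 in AAV_Null. It was lower in AAV_Cre on 4 of 4 arrays, by next to nothing on array 3, with ratios of -0.17, -0.25, -0.014 and -0.50 (mean -0.23 ± 0.094).

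Sts, which removes the sulfate that Sult1e1 and the steroid sulfotransferases add, had ratios of opposite sign in the dye orientations. It gave 13.66, 12.98, 13.15 and 13.45 in AAV_Cre, against 14.08, 13.29, 12.77 and 12.92 in AAV_Null. The channel in Cy3 was the brighter on all 4 arrays. The log2 ratios were -0.42 and -0.32 with AAV_Cre in Cy5, and 0.37 and 0.53 with AAV_Cre in Cy3. Their mean was 0.042 ± 0.057 with the dye effect in the fit and had an SE of 0.18 without it. The orientation is not what the genes were chosen on, and its effect of -0.41 had a limma adjusted p of 0.0476 over all genes, the 1 such effect among the 9 genes. A dye effect passed this threshold in 2.68% of all genes. Whether it is the dye or the RNA pairs of the arrays cannot be told apart.

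**Figure D3:**
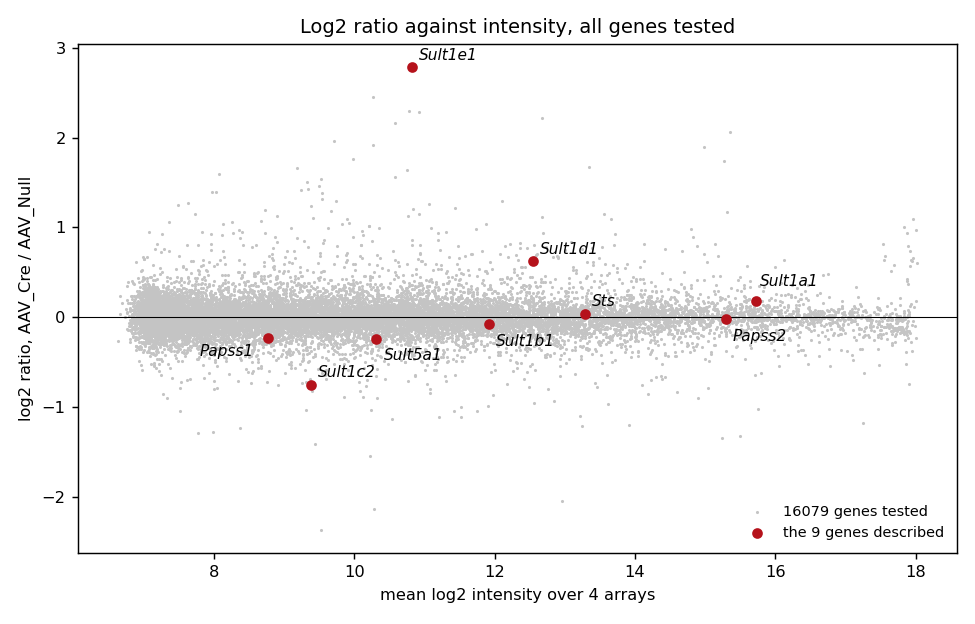
Mean log2 ratio of AAV_Cre over AAV_Null (vertical) against mean log2 intensity over 4 arrays (horizontal) for 16079 genes (grey), with the 9 genes in red. Sult1e1 is the highest point at 2.79, Sult1c2 is at -0.75 and Sult1d1 at 0.63, and the other 6 lie between -0.24 and 0.18.

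Among all genes, 445 of 16079, or 2.77%, passed a limma adjusted p of 0.05, with 1.78% of all genes higher and 0.983% lower in AAV_Cre. Of the 9 genes, Sult1e1 passed in the higher and Sult1c2 in the lower direction, which the choice of genes used and which is given as a count alone. Levels of both groups did not overlap for 2 of the 9 genes, beside 5.85% of genes measured on 4 arrays. The sign was the same on all arrays for Sult1e1, Sult1c2 and Papss1, beside 23.6% of genes. Array 2 gave the lowest ratio of the 4 for 5 of the 9 genes, beside 30.2% of all genes. Without array 1 or array 3, Sult1e1 alone of the 9 genes passed, among 13 and 37 genes in all. Without array 2 or array 4 the limma fit called 0 genes, with 2109 and 3306 genes at an unadjusted p under 0.05, and the Sult1e1 log2 ratio was then 2.68 and 2.69.

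The other genes of the sulfation pathway were read from lists. Over all genes the median log2 ratio was -0.0025, and 2.77% were called. At an unadjusted p under 0.05, limma had 3632 genes, or 22.6% of all genes tested, beside which the counts at that level below are to be read. Among the other cytosolic sulfotransferases, 8 of 14 genes on the array were tested, of which 7 rose and 1, Sult2a8, fell (median log2 ratio 1.98). Sult3a2 (2.46 ± 0.15), Sult2a4 (2.22 ± 0.20), Sult2a3 (2.16 ± 0.15) and Sult2a2 (2.06 ± 0.067, 3 arrays) rose with limma adjusted p of 0.0112 to 0.0220. The Sult2a copies share sequence, so which copy a probe read is uncertain. Without array 1, 6 of these 8 genes passed the threshold, and without array 2, 3 or 4, 0 passed. Not all 8 were tested in each of these fits, since a probe needed values on 3 arrays. Sult2a2 had no value on array 1 and was tested only in the fit without that array. The Sult2a6 probe used had no value on array 3, so it could be tested only without that array.

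Genes that supply sulfate and handle PAPS made no call. Of 12 tested genes listed for sulfate supply, which cover sulfate uptake and the metabolism of cysteine and sulfur, limma called 0. Of these, 4 were at an unadjusted p under 0.05, and the median was 0.069. The smallest p was that of Slc26a1, a sulfate carrier of the hepatocyte membrane, with log2 intensities of 14.54, 14.26, 14.32 and 14.26 in AAV_Cre and 14.74, 14.71, 14.92 and 14.76 in AAV_Null. Its log2 ratio was -0.44 ± 0.065 (adjusted p = 0.0510 in limma), with levels that did not overlap. It passed in 4 of the 13 other settings tried with all arrays, with adjusted p between 0.0060 and 0.0395. Of the 4 genes that carry PAPS into the Golgi or break down its product PAP, limma called 0, also at an unadjusted p under 0.05, and the median was -0.020. Bpnt1, which removes a phosphate from PAP, had the smallest p of them, with -0.12 ± 0.055 (adjusted p = 0.279).

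Beside 2.77% of all genes, the Golgi sulfation system and the sulfatases had 1 call each. Of 13 Golgi sulfotransferases tested, 1 fell and 0 rose (median 0.015). Gal3st1, which makes sulfatide lipids, fell by 0.53 ± 0.059 on the log2 scale (limma adjusted p = 0.0315). Its log2 intensities were 6.69, 6.84, 6.96 and 7.02 in AAV_Cre and 7.29, 7.60, 7.28 and 7.47 in AAV_Null, near the dim end of the array, and Agilent's processed signals gave a log2 ratio of -1.03. Of 11 sulfatases and sulfatase-modifying factors other than Sts, 1 rose and 0 fell (median -0.0038). Sulf2, which trims sulfate from heparan sulfate outside the cell, was at 10.85, 11.01, 10.97 and 10.82 in AAV_Cre and 10.02, 10.20, 10.32 and 10.19 in AAV_Null, a log2 ratio of 0.73 ± 0.049 (limma adjusted p = 0.0153).

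Of 10 tested membrane carriers of sulfated conjugates, Slc22a7, an organic anion carrier, fell and 0 rose (median -0.075), with 5 at an unadjusted p under 0.05. In 6 of 13 other settings with all arrays, 3 or 4 of these carriers passed. Slc22a7 was at 9.29, 8.73, 9.40 and 9.40 in AAV_Cre and 11.497, 10.96, 11.11 and 11.82 in AAV_Null. Its log2 ratio was -2.14 ± 0.13 (limma adjusted p = 0.0127). Of the 8 oestrogen receptors and enzymes of oestrogen metabolism tested and reported here, limma called 0, with 3 at an unadjusted p under 0.05 and a median of 0.041. The smallest p was that of Hsd17b11, a steroid dehydrogenase, at 12.73, 13.02, 12.96 and 12.58 in AAV_Cre and 13.08, 13.63, 13.50 and 12.93 in AAV_Null. Its log2 ratio was -0.46 ± 0.073 (limma adjusted p = 0.0558), lower on 4 of 4 arrays. It passed in 4 of 13 other settings with all arrays, with adjusted p of 0.00725 to 0.0440. The oestrogen receptor Esr1 itself had a log2 ratio of 0.024 ± 0.070 (adjusted p = 0.866).

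Of 14 transcription factors known in the control of hepatic conjugation genes, 2 rose, 1 fell and 11 did not pass (median 0.0024). Beside this, 2.77% of all genes were called, and 22.6% had an unadjusted p under 0.05 in limma, as 6 of the 14 did. Nfe2l2, the factor NRF2 of the oxidative stress response, rose by 0.70 ± 0.094 on the log2 scale (limma adjusted p = 0.0417). Nr1i2, the pregnane X receptor, which senses drugs and steroids, rose by 0.49 ± 0.072 (adjusted p = 0.0497). Cebpa, which encodes the hepatocyte factor C/EBPα, fell by 0.59 ± 0.064 (adjusted p = 0.0298). The groups did not overlap for Nfe2l2, with 11.78 to 12.17 in AAV_Cre and 11.04 to 11.55 in AAV_Null, and overlapped for Nr1i2 and Cebpa. Esr1 stands in both this list and the list on oestrogen.

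Of the casein and Ugt2 genes that flank Sult1e1 on both sides of its cluster, 9 were tested, all of them glucuronosyltransferases of the Ugt2 family. Limma called 0 of them, with 4 at an unadjusted p under 0.05 and a median of 0.074. Ugt2b37 had the smallest p, with log2 ratios of 0.13, 0.33, 0.31 and 0.60 (mean 0.34 ± 0.075, limma adjusted p = 0.0952). It passed in 4 of 13 other settings with all arrays, with adjusted p of 0.0223 to 0.0493. The casein genes and Odam did not pass the filter on dim probes. The Ugt2 genes lie beyond Sult1b1 and Sult1d1, and the caseins directly next to Sult1e1 on its other side. The casein side was therefore not read. In the same stretch of chromosome 5, Sult1e1 stood at 2.79.

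With 1 array left out, Gal3st1, Sulf2, Nfe2l2, Nr1i2 and Cebpa did not pass the limma threshold, whichever array it was (adjusted p 0.0625 to 0.266), and Slc22a7 passed only without array 3. The log2 ratios of these 6 genes kept their signs in every such fit. Over the same arrays the 10 stellate cell and fibroblast markers tested, of 12, had median log2 ratios of 0.33, 0.43, 0.082 and 0.29, and a mean log2 intensity of 10.4 to 10.7 in AAV_Cre and 9.94 to 10.6 in AAV_Null. The 14 hepatocyte markers had medians of 0.22, 0.23, -0.26 and -0.52, and the 13 endothelial markers tested had 0.0030, -0.038, -0.25 and -0.31. The part of these shifts in the ratios above was not tested.

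**Figure D4:**
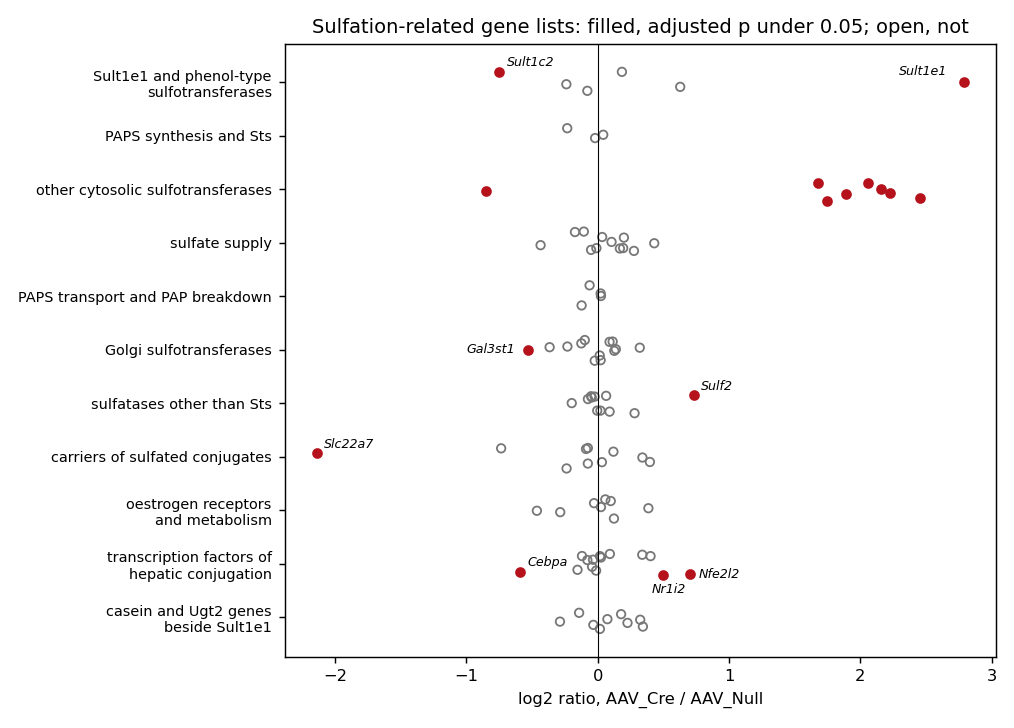
Mean log2 ratio of AAV_Cre over AAV_Null (horizontal) for every tested gene of the 9 genes described and of 9 lists of related genes (rows, with points spread vertically for sight only), filled where limma's adjusted p was under 0.05. Sult1e1 at 2.79 and 7 of the other cytosolic sulfotransferases lie far to the right, while the lists of sulfate supply, PAPS handling, oestrogen metabolism and genes beside Sult1e1 hold open points only.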

How the data were processed

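All 4 Agilent 2-colour arrays of liver RNA shared 1 slide, and a slide effect could not be fitted. The deposited spot intensity and local background of both dyes came, per the file headers, from Agilent Feature Extraction 11.5.1.1. The log10 ratio of Cy5 over Cy3 in the same files was derived from background-subtracted, dye-normalised signals, per the file headers. The authors also deposited a table of log2 values. Limma is named for it in the submitters' processing notes, and the steps are not given in the sources used here. Its slopes on the log10 ratio were 3.34, 3.33, -3.29 and -3.39 over spots with both processed signals above 2000, where the log2 of 10 is 3.32, so it holds AAV_Cre over AAV_Null under the labels' dyes. Column medians were -0.022, -0.038, 0.035 and 0.041, and its centring is unknown.

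R 4.3.3 with limma 3.58.1 corrected mean intensities by normexp (offset 50) and normalised them by loess within each array, where control spots had weight 0. Spots marked as outliers were dropped and the spots of a probe averaged. A probe was kept if well above background in at least 3 of 4 channels of a group with usable spots on at least 3 arrays, which held for 20335 of 39429 probes. Dye and treatment effects were fitted to the log2 ratio with lmFit and eBayes, with 2 or fewer residual degrees of freedom and 2.67 prior ones. The brightest probe stood for a gene. Benjamini-Hochberg adjustment ran over 16079 genes, and the threshold was 0.05. The number of arrays limits the precision, and p-values measure the spread between these arrays, which may be technical. Symbols came from a RefSeq table (GRCm38.p6): 27508 probes by accession, 402 by synonym, 3544 already current and 7975 left with the array's name. In 20 draws of simulated data, the fit recovered 88.3% of log2 changes of 0.5, 99.5% of 1 and 99.9% of 2. Noise was drawn as independent and normal, with each gene's variance as already moderated by eBayes. Real variances may differ more between genes, so recovery on the arrays may be lower. A gene that was not called is therefore not shown to have changed by less than these sizes. A mean of 6.69% of its calls were false, beside the adjusted p threshold of 0.05.

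The 9 genes and all lists were chosen with earlier results of these data known. Named are the 9 genes, up to 4 called genes of largest ratio per list or else the gene of smallest p, and the 5 genes most like Sult1e1. Esr1 was named after its value was seen. From the lists, 1 gene is not reported here and is in no list count or median. Alternatives were other background corrections, signals, normalisations, filters, probe choices and variance settings, no dye effect, the authors' log2 values and each array left out.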

Additional observations from a re-analysis of the deposited data

Results flagged for a closer look

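In 48 sets of 4 values (the AAV_Cre levels, AAV_Null levels and log2 ratios of each tested probe of the 9 genes, and the log2 ratios of each gene named from the lists and of Trf and Col3a1), 2 sets had a value far from the other 3. Chance flags about 1 in 20 such sets, or 2.4 of 48. The Sult1a1 probe from transcript base 1037 had an AAV_Null log2 intensity of 15.898 on array 2, against 15.239 to 15.329 on the other arrays. The Sult5a1 probe from transcript base 896 had an AAV_Null log2 intensity of 10.564 on array 2, against 10.381 to 10.403 on the other arrays.

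For Sts, Bpnt1 and Trf, both ratios with AAV_Cre in Cy5 had the opposite sign to both ratios with AAV_Cre in Cy3. For Sts, the dye effect, the amount by which arrays with AAV_Cre in Cy5 lay above the mean of both orientations, was -0.41 on the log2 scale (limma adjusted p = 0.0476). For Bpnt1 it was 0.143 (limma adjusted p = 0.198). For Trf it was 0.823 (limma adjusted p = 0.0272).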

How the results depend on the processing

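Under 13 alternatives with all arrays, the log2 ratios of the 9 genes moved by less than their spread (SD) over arrays. Many of these alternatives could not move these ratios. They were no dye effect, normalisation between arrays, the filters, outlier spots kept and the variance settings. Probe choice could not move a gene with 1 tested probe. The ranges with all arrays thus rest on the background corrections, signals, median centring, the authors' values and, for some genes, probe choice. A fit with an array left out cannot move a ratio by more than that spread, so the 4 such fits give ranges alone. Sult1e1 ranged over 2.79 to 3.02 with all arrays and 2.68 to 2.89 with an array left out, Sult1c2 over -0.86 to -0.75 and -0.84 to -0.66, and Sult1d1 over 0.63 to 0.70 and 0.40 to 0.86. Sult1e1 had the highest ratio of all genes in every setting except Agilent's processed signals, where it ranked 2. Counts moved more. The 445 genes past the threshold became 270 with no dye effect, 1403 with no background correction, 192 with a normexp offset of 10, 772 with Agilent's processed signals, 756 with median centring, 1472 with trend and robust empirical Bayes and 1382 with the authors' log2 values, and 0 to 37 with an array left out. The 14 list genes became 24, 8, 25 and 24 with no background correction, the offset of 10, trend and robust empirical Bayes and the authors' values, and 0 to 6 with an array left out. Of the 9 genes, 2 passed in all settings with all arrays but the offset of 10, where 1 passed, and 0 to 1 passed with an array left out. With an array left out, 1 orientation rests on a lone array that is assumed to vary like the others. Of the calls, 64.5% were higher, and 92.3% without array 1. Cebpa (adjusted p = 0.0554), Nfe2l2 (0.0727) and Nr1i2 (0.0772) did not pass in limma with the offset of 10. With no dye effect, Cebpa (0.0632) and Gal3st1 (0.0546) did not pass. Nr1i2 also did not pass with no filter on dim probes (0.0654), the mean of the probes of a gene (0.0512) or its probe of lowest intensity (0.0543). The causes were not tested. The dim probe of Gal3st1 ranged over -1.03 to -0.46 with all arrays. Each array pairs an RNA of each group, and the fit used that pairing through the ratio within the array. Arrays of opposite dye orientation share no replicate number, so no further pairing was possible.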

Other observations

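In the authors' deposited table, the log2 values of Sult1e1 were 2.74, 3.13, 2.80 and 2.94 on arrays 1 to 4. The authors' deposited table gave Sult1c2 as -0.41, -0.91, -1.14 and -0.75, and Sult1d1 as 0.81, -0.14, 0.75 and 1.11. In the authors' deposited table Papss1 was 0.056 on array 3, the sign opposite to that of the other arrays, so its 4 values there did not share a sign.

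The Sult5a1 probe from transcript base 400, not well above background in any channel, read 6.21 to 6.66 in AAV_Cre and 6.41 to 6.84 in AAV_Null on the log2 intensity scale.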
